A study of Homo sapiens with 8 samples.

Results

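The 10 genes described here are noncoding host genes of small nucleolar RNAs (snoRNAs): SNHG1, SNHG3, SNHG5, SNHG7, SNHG8, SNHG12, SNHG15, SNHG16, GAS5 and ZFAS1. They were taken by name from a table of 23368 gene symbols. All 10 were found, SNHG16 under its older identifier LOC100507246 and ZFAS1 under its older symbol ZNFX1-AS1, and all 10 passed the filter on low counts that left 15254 genes for testing. RNA sequencing was done on HEK293F cells, an established line from human embryonic kidney, in which the RNA helicase MOV10 was lowered or raised. MOV10 siRNA was given in 3 rounds 24 h apart (knockdown, 2 libraries), myc-tagged MOV10 was transfected in 1 round (overexpression, 3 libraries), and an irrelevant siRNA was given in 3 rounds 24 h apart (control, 3 libraries). An empty-vector group was not analysed here, so in the overexpression comparison the raised MOV10, the plasmid and the missing siRNA treatment cannot be told apart. Whether libraries of a group come from separate cultures is not labelled, so the spread behind every p-value below may be purely technical.

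A noncoding snoRNA host gene is transcribed like a messenger RNA, and its snoRNAs are trimmed out of the spliced introns. The snoRNAs go to the nucleolus, where C/D box snoRNAs guide 2'-O-methylation and H/ACA box snoRNAs guide pseudouridylation of ribosomal RNA. The spliced exons that remain reach ribosomes, where a short reading frame ends before an exon junction, and such RNAs are known substrates of nonsense-mediated decay (NMD), the pathway of UPF1 and the SMG proteins. Many host genes also start with the pyrimidine tract of TOP mRNAs, whose translation depends on mTOR and LARP1. MOV10 is known to bind UPF1 as well as Argonaute proteins and the fragile X protein FMRP.

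The reading frames that end early are shown for 3 members, since this arrangement is what places the family among NMD substrates. Each sequence is 1 spliced transcript of GENCODE 29, from its first base or its first ATG through the first in-frame stop, with the ATG and the stop in capitals. SNHG15 had the largest log2 fold change with overexpression, SNHG16 was lower under both treatments, and the SNHG3 transcript shown has no junction more than 50 bases after the stop.
SNHG15: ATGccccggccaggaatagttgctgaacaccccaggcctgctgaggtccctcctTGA
SNHG16: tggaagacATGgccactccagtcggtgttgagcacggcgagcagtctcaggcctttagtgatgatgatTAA
SNHG3: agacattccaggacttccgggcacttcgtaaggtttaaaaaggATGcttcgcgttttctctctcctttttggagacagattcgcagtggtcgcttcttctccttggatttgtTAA
The SNHG15 frame has 18 codons and 1 exon junction more than 50 bases after the stop, the SNHG16 frame 20 codons and 3 junctions, and the SNHG3 frame 23 codons and 0 junctions. Over all annotated spliced transcripts of the 10 genes, 114 of 132 (86.4%) had a junction more than 50 bases after the first stop. The same was true of 18188 of 25550 other spliced long noncoding transcripts (71.2%), so the feature is common outside the family. The counts used here are sums per gene and do not separate these transcripts.

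Start regions are shown for 4 members, because the tract at the first bases is the other feature for which host genes are known. Each runs from 40 bases before to 50 bases from the annotated RefSeq start (GRCh38.p14), and capitals mark the tract, a C followed by at least 4 letters that are each C or T. ZFAS1 lies at chr20:49278602-49278691 on the plus strand, SNHG8 at chr4:118278722-118278811 on the plus strand, SNHG7 at chr9:136728135-136728224 on the minus strand and SNHG16 at chr17:76557724-76557813 on the plus strand.
ZFAS1: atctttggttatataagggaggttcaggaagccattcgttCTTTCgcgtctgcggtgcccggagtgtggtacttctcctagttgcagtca
SNHG8: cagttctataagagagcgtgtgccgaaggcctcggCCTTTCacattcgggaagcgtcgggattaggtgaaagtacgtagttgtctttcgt
SNHG7: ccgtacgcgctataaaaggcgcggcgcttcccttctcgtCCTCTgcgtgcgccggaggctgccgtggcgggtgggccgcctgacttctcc
SNHG16: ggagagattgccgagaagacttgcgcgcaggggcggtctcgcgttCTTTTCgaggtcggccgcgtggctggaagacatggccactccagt
A tract within 5 bases of the start was present, searching only the strand of the gene, in 6 of 9 members with a RefSeq entry (SNHG5, SNHG7, SNHG8, SNHG12, SNHG16 and ZFAS1). It was present in 46 of 78 cytosolic ribosomal protein genes (59.0%), the classical TOP mRNAs, and in 18.1% of 35093 promoters. The SNHG8 tract begins 5 bases before the annotated start and the SNHG16 tract 5 bases after it. GAS5, SNHG1 and SNHG3 had none within 5 bases of that start. In GENCODE 29, 7 of 29 annotated GAS5 transcripts have a tract that starts at most 5 bases after their first base, beside 10.2% of all transcripts. Among SNHG15 transcripts 0 of 10 do, and 0 of 4 among those of SNHG7, which has a tract at its RefSeq start. Members with a tract included ZFAS1 and SNHG8, which rose with overexpression, and SNHG16, which fell.

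MOV10 followed its labels, at 81.5 ± 8.44 CPM (SD, n = 3) in control, 53.1 ± 3.47 CPM (SD, n = 2) in knockdown and 2780 ± 284 CPM (SD, n = 3) in overexpression. CPM are read counts scaled by library size and by TMM factors, which correct for composition. Libraries held 12.7 M to 32.8 M counted reads, and overexpression replicate 3 was the shallowest. In the control libraries 7 of 8 markers of an embryonic kidney line reached 1 CPM, all but PAX8. Their summed level was 1210 to 1230 CPM in control, 1431 to 1507 in knockdown and 1107 to 1161 in overexpression. The single markers went both ways. Of 7 tested with edgeR, 2 rose and 2 fell with knockdown (median log2 change -0.12), beside 19.9% and 19.1% of all genes. With overexpression 1 rose and 1 fell (median -0.11), beside 25.2% and 24.1%. For 10 markers of blood, endothelium, liver and fibroblasts the summed level was 63.4 to 69.4 CPM in control, 47.2 to 49.0 in knockdown and 62.7 to 70.6 in overexpression. The part of these differences in the results was not tested. In bulk RNA, fewer cells with a transcript and less transcript per cell cannot be told apart.

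Every member was well covered, with 416 to 7849 reads per library. Together the 10 genes made up 0.0862% to 0.103% of each library's counts. The spread of the members between libraries of a group was small, with a median coefficient of variation of 2.74% and a range of 0.872% to 10.5%. Over the genes tested, the treated groups were less even than control. Chi-square per gene between 2 libraries was 1.86 to 1.94 in control, 3.06 in knockdown and 3.09 to 7.84 in overexpression, a measure that also grows with depth. The fit uses 1 estimate of the spread for all groups. Per kilobase of annotated exon, the control level was highest for SNHG1 at 61.2 CPM per kb, followed by SNHG16 at 37.9, SNHG8 and ZFAS1 at 35.4 each, SNHG3 at 27.1, SNHG5 at 20.7, SNHG15 at 17.6, GAS5 at 15.3, SNHG7 at 10.6 and SNHG12 at 6.84. SNHG16, SNHG8 and ZFAS1 could not be separated, since their control libraries overlapped. SNHG1 was first and SNHG7 and SNHG12 were the lowest with all 3 definitions of length, whereas only 3 of 10 ranks were kept with the longest transcript and 4 of 10 with the median transcript.

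**Figure D1:**
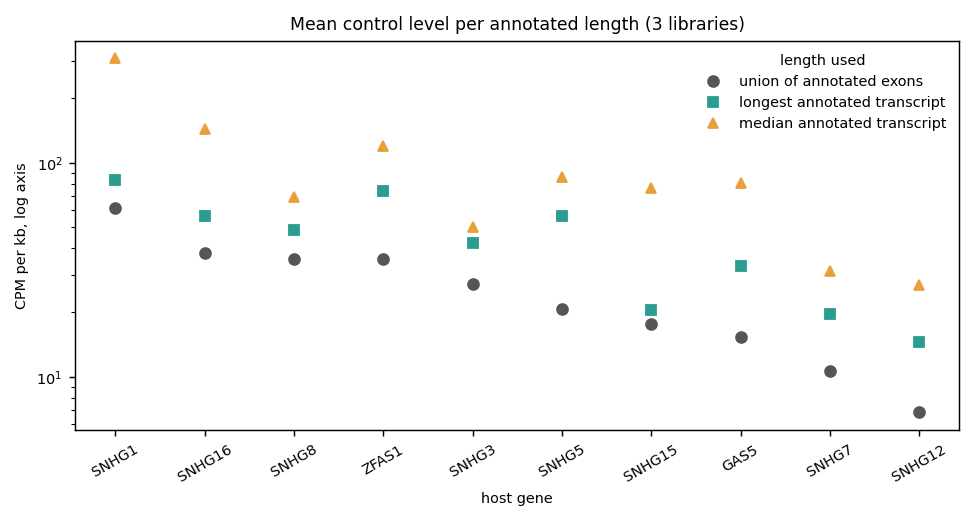
Mean control level of each host gene (3 libraries) in CPM per kb on a log axis, divided by 3 annotated lengths. SNHG1 stays at the top with SNHG7 and SNHG12 at the bottom, and most of the genes between them change places with the length used.

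Raising MOV10 was accompanied by more RNA from SNHG15, GAS5, ZFAS1 and SNHG8 and less from SNHG16, while the other 5 host genes did not pass the test. Calls rest on edgeR's quasi-likelihood test at an adjusted p under 0.05 over all genes. Thus 4 of 10 members rose, beside 25.2% of all genes tested, and 1 of 10 fell, beside 24.1%. The median log2 fold change was 0.10 over the members and 0.01 over all genes.

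**Figure D2:**
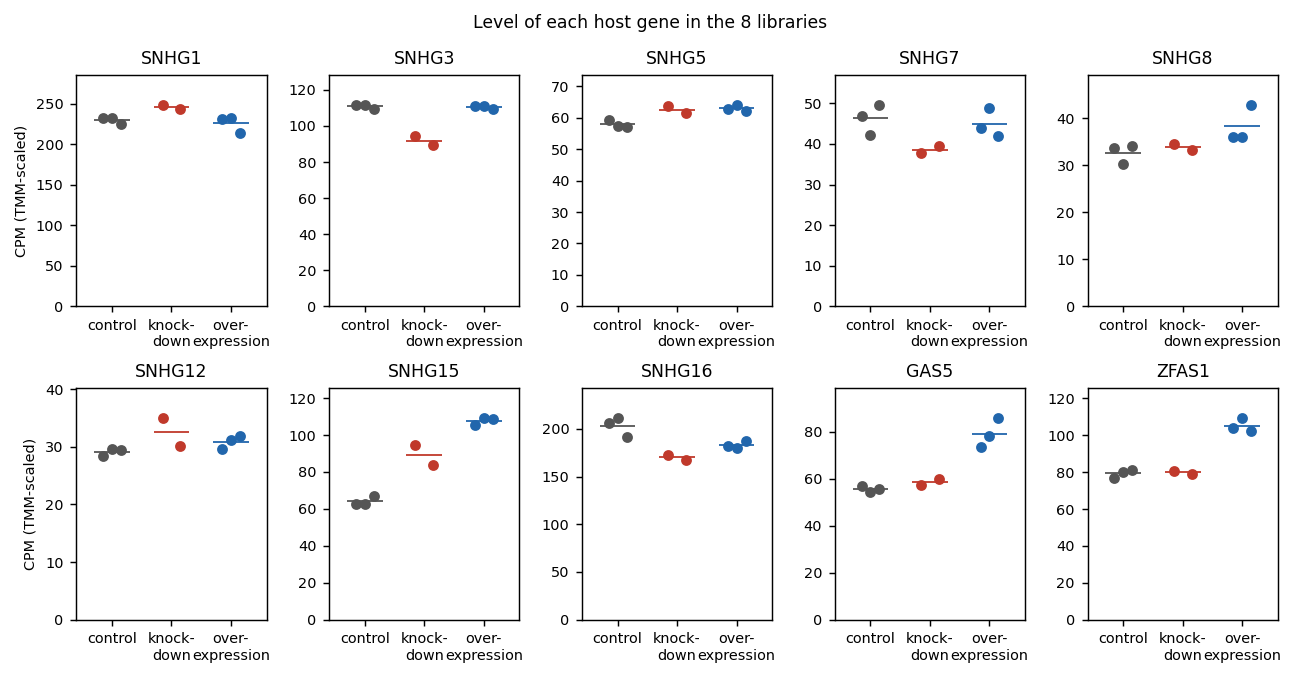
Level of each host gene in CPM (linear axis from 0) in the 3 control, 2 knockdown and 3 overexpression libraries; points are libraries and lines are group means. With overexpression SNHG5, SNHG8, SNHG15, GAS5 and ZFAS1 lie above every control library and SNHG16 below. With knockdown SNHG1, SNHG5, SNHG12, SNHG15 and GAS5 lie above every control library, and SNHG3, SNHG7 and SNHG16 below. How many of all genes separate in this way was not counted.

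SNHG15, a short-lived RNA that hosts the H/ACA snoRNA SNORA9, changed most. It stood at 62.8, 62.4 and 67.1 CPM in control, at 105.3, 109.2 and 108.4 CPM in overexpression and at 94.6 and 83.6 CPM in knockdown. All 5 treated libraries were above all 3 control libraries, and the overexpression libraries were above the knockdown libraries. SNHG15 rose 1.68-fold with overexpression (log2 0.75 ± 0.06 SE, edgeR adjusted p = 3.03e-09) and 1.40-fold with knockdown (log2 0.48 ± 0.06 SE, edgeR adjusted p = 4.30e-06). The direct contrast of overexpression with knockdown gave 0.27 ± 0.06 (SE) on the log2 scale (edgeR adjusted p = 0.000817). No control level is compared in it, but the control libraries are part of the fit behind its SE and p. SNHG15 was the 1 member called higher under both treatments, and these comparisons share their control libraries.

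GAS5, named for its build-up in growth-arrested cells, hosts C/D box snoRNAs in nearly every intron. Its level was 57.0, 54.3 and 55.8 CPM in control, 57.5 and 59.8 CPM in knockdown, and 73.7, 78.3 and 85.9 CPM in overexpression. The overexpression libraries were above all others, whereas the knockdown libraries exceeded the highest control library by little. GAS5 rose 1.42-fold with overexpression (log2 0.50 ± 0.06 SE, edgeR adjusted p = 8.98e-07). With knockdown the log2 change was 0.07 ± 0.07 (SE, edgeR adjusted p = 0.397), and overexpression exceeded knockdown by 0.43 ± 0.06 (SE) on the log2 scale (edgeR adjusted p = 1.17e-05).

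ZFAS1 runs antisense to the 5' end of ZNFX1 and hosts the SNORD12 family. It stood at 77.0, 80.1 and 81.2 CPM in control, at 80.8 and 78.9 CPM in knockdown and at 104.0, 109.4 and 102.2 CPM in overexpression. Knockdown and control overlapped, and overexpression was above both. ZFAS1 rose 1.33-fold with overexpression (log2 0.41 ± 0.05 SE, edgeR adjusted p = 1.72e-06), differed from control by 0.01 ± 0.06 (SE, log2, edgeR adjusted p = 0.907) with knockdown, and was higher in overexpression than in knockdown by 0.40 ± 0.06 (SE, log2, edgeR adjusted p = 5.03e-06). The calls of SNHG15, GAS5 and ZFAS1 held in each alternative run.

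SNHG8, host of the H/ACA snoRNA SNORA24, changed less. Its level was 33.7, 30.3 and 34.1 CPM in control, 34.5 and 33.3 CPM in knockdown and 36.1, 36.0 and 42.9 CPM in overexpression. All overexpression libraries were above the control libraries, replicate 3 by the most. SNHG8 rose 1.16-fold (log2 0.22 ± 0.07 SE, edgeR adjusted p = 0.0184). The call was lost without overexpression replicate 3 (edgeR adjusted p = 0.0628) and without control replicate 2 (edgeR adjusted p = 0.116).

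SNHG16, which hosts the SNORD1 family, was the 1 member that fell with overexpression. It stood at 206.3, 211.2 and 191.8 CPM in control, at 181.6, 179.5 and 187.7 CPM in overexpression and at 172.6 and 167.5 CPM in knockdown. Every treated library was below every control library. SNHG16 fell by 0.15 ± 0.05 (SE) on the log2 scale with overexpression (edgeR adjusted p = 0.0123) and by 0.26 ± 0.05 with knockdown (edgeR adjusted p = 0.000806). The overexpression call was lost without TMM scaling (edgeR adjusted p = 0.0512), without control replicate 1 (0.0732) and without control replicate 2 (0.0867), whereas the knockdown call held in each alternative. The difference between overexpression and knockdown was 0.10 ± 0.05 (SE, log2, edgeR adjusted p = 0.106).

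Lowering MOV10 was accompanied by less RNA from SNHG3, SNHG7 and SNHG16 and more from SNHG15. With knockdown 3 of 10 members fell, beside 19.1% of all genes tested, and 1 of 10 rose, beside 19.9%. The median log2 fold change was 0.06 over the members and -0.00 over all genes. Without TMM scaling, 39.5% of the genes called with knockdown were higher, in place of 51.1%, and 60.1% with overexpression, in place of 51.1%.

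SNHG3, host of the SNORA73 snoRNAs, stood at 111.8, 111.4 and 109.7 CPM in control, at 111.1, 111.1 and 109.4 CPM in overexpression and at 94.6 and 89.2 CPM in knockdown. Overexpression and control overlapped, and both knockdown libraries were below them all. SNHG3 fell by 0.27 ± 0.05 (SE) on the log2 scale with knockdown (edgeR adjusted p = 0.000486), in each alternative run. SNHG7, which hosts H/ACA snoRNAs, stood at 46.8, 42.3 and 49.6 CPM in control, at 43.8, 48.9 and 41.9 CPM in overexpression and at 37.7 and 39.4 CPM in knockdown. Its knockdown libraries were likewise the lowest, but control and overexpression spread widely. SNHG7 fell by 0.26 ± 0.08 (SE) on the log2 scale with knockdown (edgeR adjusted p = 0.00984), a call that was lost without knockdown replicate 2 (0.125) and without control replicate 3 (0.0521).

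The remaining members passed neither comparison with control. SNHG1, the host known as UHG, had log2 changes of -0.02 ± 0.05 (SE) with overexpression and 0.10 ± 0.05 with knockdown. SNHG5, host of SNORD50, had 0.12 ± 0.05 and 0.11 ± 0.06, and SNHG12 had 0.08 ± 0.07 and 0.17 ± 0.08. All 3 lay slightly higher with knockdown, and the edgeR adjusted p was 0.136, 0.134 and 0.079. Restricting the fit to the groups compared brought SNHG1 (edgeR adjusted p = 0.0302) and SNHG12 (0.0293) past the threshold with knockdown. SNHG12 also passed without knockdown replicate 3 (0.0243). With overexpression, SNHG5 had an edgeR adjusted p of 0.0656 and passed without TMM scaling (0.0146) and without overexpression replicate 3 (0.0367).

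In the direct contrast, 5 of 10 members were higher with overexpression than with knockdown, beside 29.3% of all genes, and 1 of 10 was lower, beside 28.1%. The 5 were GAS5, ZFAS1, SNHG15, SNHG3 (0.27 ± 0.05 SE, log2, edgeR adjusted p = 0.000276) and SNHG7 (0.23 ± 0.08 SE, log2, edgeR adjusted p = 0.0150). SNHG7 lost this call without knockdown replicate 2 (0.148) and without overexpression replicate 2 (0.0612). Without TMM scaling SNHG16 (0.00440) and SNHG8 (0.0124) also passed as higher, and SNHG8 passed without overexpression replicate 2 (0.0380), by edgeR's adjusted p. SNHG1 was lower, at -0.12 ± 0.05 (SE, log2, edgeR adjusted p = 0.0489), a call lost without TMM scaling (0.565) and in most fits that left out a library. The median was 0.20 over the members and 0.02 over all genes, and without TMM scaling 65.5% of the genes called were higher, in place of 51.0%.

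**Figure D3:**
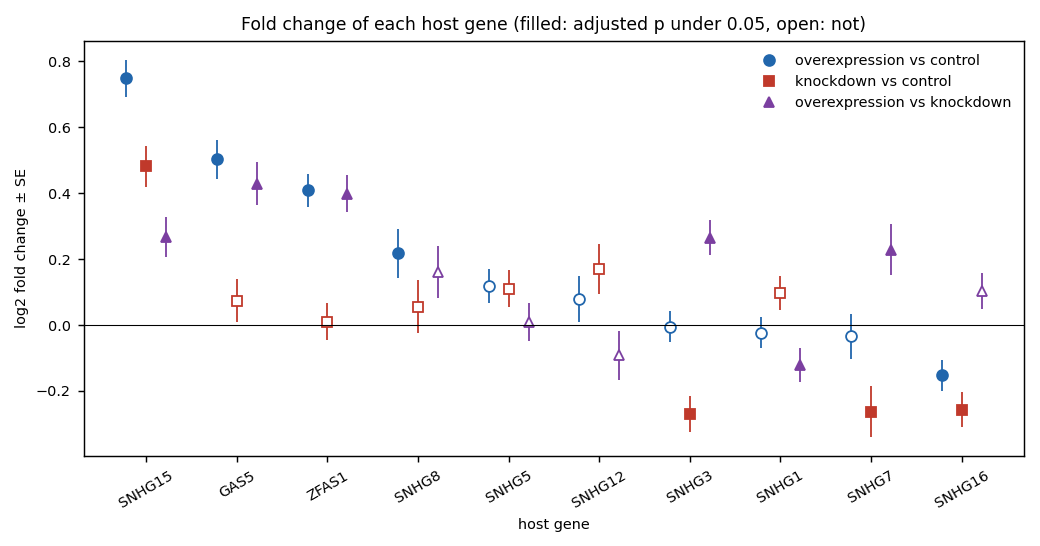
Log2 fold change with its standard error for each host gene in 3 contrasts; filled symbols passed an adjusted p of 0.05. SNHG15 is filled in all 3, GAS5 and ZFAS1 in the contrasts with overexpression, and SNHG16 lies lowest with overexpression.

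The members did not move as 1 group across libraries. Over the 8 libraries, the 45 pairs of members had a median Pearson correlation of log2 CPM of 0.16, with 5 pairs above 0.8 and 19 below 0. GAS5 and ZFAS1 were the most alike (r = 0.93), and SNHG5 and SNHG16 the least (r = -0.73). The libraries share 3 treatments, so these values describe mainly the group means. In a search of 9729 other genes whose log2 CPM averaged 4 or more, C22orf39, SAT1, TRMT11, ZNF567 and HMGCS1 followed GAS5 most closely, with r from 0.989 to 0.993 over the 8 libraries. SAT1 and HMGCS1 encode a polyamine-catabolic and a sterol-synthesis enzyme.

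Of 36 listed snoRNAs of the 10 hosts, 34 were in the table and 29 were tested, at low counts. RefSeq also places LOC124900306 inside SNHG1 and SNORA103 inside GAS5, and neither was found in the table. Reads on a snoRNA may stem from the mature snoRNA or from the unspliced host RNA, and the 2 cannot be told apart here. With overexpression 5 of the 29 rose and 1 fell, with a median of 0.23, beside 25.2% and 24.1% of all genes. With knockdown 0 rose and 2 fell, with a median of -0.09, beside 19.9% and 19.1%. In the direct contrast 6 were higher and 0 lower, beside 29.3% and 28.1% of all genes. These calls are edgeR's. At an unadjusted p under 0.05, 8 rose and 3 fell with overexpression, where DESeq2 called 3 higher and 1 lower. At that p, 2 rose and 2 fell with knockdown and 0 were lower in the direct contrast, and DESeq2 called 0 either way with knockdown.

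The summed level of the GAS5 snoRNAs was 23.2, 23.2 and 22.8 CPM in control, 20.2 and 20.8 CPM in knockdown and 30.8, 29.4 and 34.4 CPM in overexpression. Overexpression was above, and knockdown below, every control library. Of 9 tested, SNORD47 (0.52 ± 0.14 SE, log2, edgeR adjusted p = 0.00513), SNORD80 (0.43 ± 0.12, 0.00565) and SNORD44 (0.44 ± 0.15, 0.0171) rose with overexpression. These 3 of 9 stand beside 25.2% of all genes, and DESeq2 called 2 of the 9. The median of the 9 was 0.44, near the host's 0.50. SNORD44 lost its call without control replicate 2 and with DESeq2, while SNORD47 and SNORD80 kept theirs in all 14 alternatives. With knockdown edgeR and DESeq2 called 0 of the 9, 0 had an unadjusted p under 0.05, and the median was -0.17. SNORD44, SNORD47, SNORD76, SNORD79, SNORD80 and SNORD81 were higher in overexpression than in knockdown, by 0.56 to 0.95 on the log2 scale. SNORD79 lost that call in 5 of 13 alternatives, and SNORD76 and SNORD81 lost it without knockdown replicate 2.

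SNHG1 did not pass with overexpression. Of its 8 tested snoRNAs 2 rose and 0 fell, beside 25.2% and 24.1% of all genes, so the share that rose was no higher than among all genes. The 2 were SNORD25 (0.60 ± 0.18 SE, log2, edgeR adjusted p = 0.00906) and SNORD22 (0.41 ± 0.15, 0.0233), and DESeq2 called 1 of the 8. The summed level of the SNHG1 snoRNAs was 23.1, 21.4 and 24.2 CPM in control. It was 28.0, 28.0 and 30.1 CPM in overexpression and 26.3 and 26.4 CPM in knockdown. With knockdown edgeR called 0 of the 8, 2 rose at an unadjusted p under 0.05, and the median was 0.25. Of the 4 of SNHG12, SNORA61 fell with overexpression by 0.53 ± 0.16 (SE, log2, edgeR adjusted p = 0.00741) and with knockdown by 0.48 ± 0.16 (0.0234), and SNORD99 fell with knockdown by 0.67 ± 0.26 (0.0495). DESeq2 called none of the 4 with knockdown, and SNORD99 lost its call in 11 of 13 alternatives and SNORA61 in 4 of 13. With overexpression SNORA61 lost its call without overexpression replicate 1 (edgeR adjusted p = 0.0606). Leaving out single libraries lost SNORD22 in 4 refits and SNORD25 in 1, and SNORD22 was also lost with DESeq2. The host SNHG12 itself was not called with either treatment. SNORA9 of SNHG15 had -0.08 ± 0.16 (SE, log2) with overexpression, where its host rose, and SNORD12 and SNORD12B of ZFAS1 had -0.03 ± 0.23 and -0.19 ± 0.34. SNORA24 had -0.30 where its host SNHG8 rose. The 3 snoRNAs of SNHG16, which fell, had a median of 0.06, or -0.02 with DESeq2. Of the snoRNAs of SNHG8 and SNHG16, 0 were called. These few low-count snoRNAs have wide errors, and whether host and snoRNA differed in response was not tested. No snoRNA of SNHG3 or SNHG7 could be tested.

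**Figure D4:**
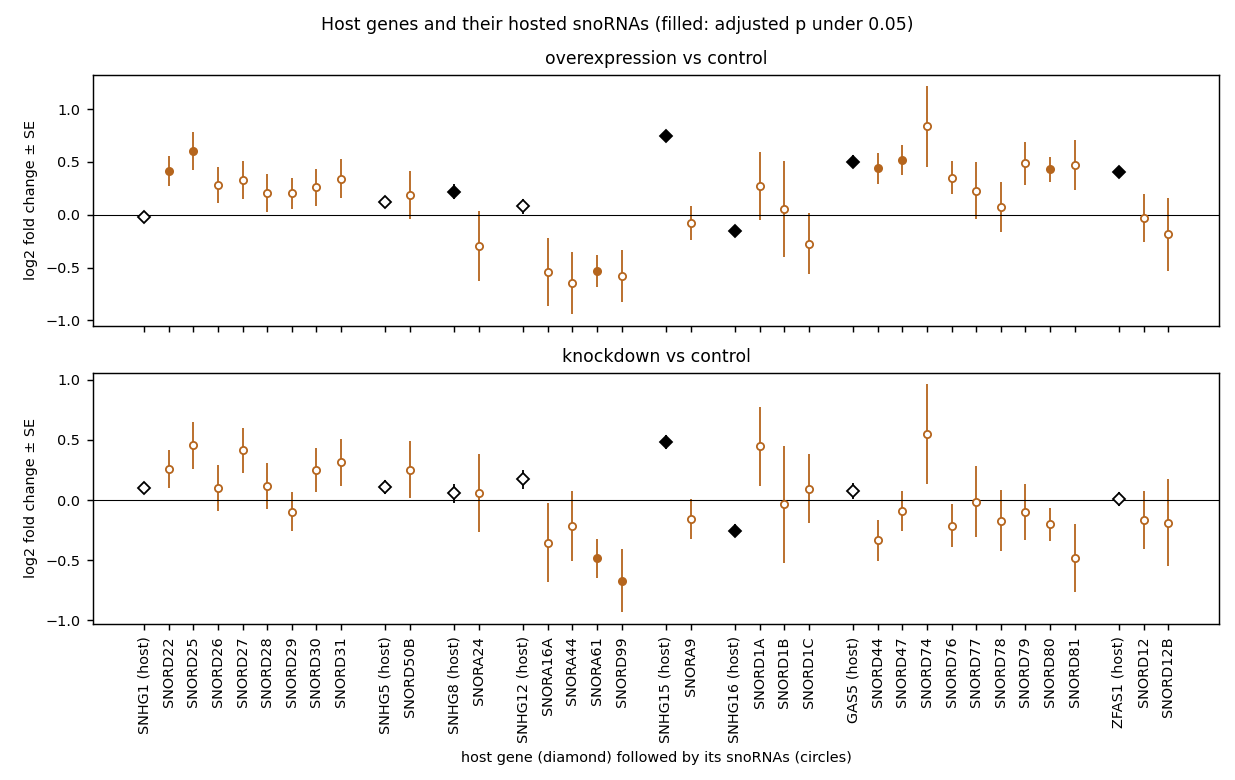
Log2 fold change with its standard error for hosts (black diamonds) and their tested snoRNAs (brown circles), with overexpression above and knockdown below; filled symbols passed an adjusted p of 0.05. All 9 GAS5 snoRNAs lie above 0 with overexpression, and all 4 SNHG12 snoRNAs lie below 0 in both panels.

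Genes that start next to a member can share its promoter region, and reads can overlap. The strand setting of the counting is not given in the sources used here, so reads of antisense partners may have been mixed. ZBTB37, a zinc finger gene that starts 800 bases from GAS5 on the opposite strand, rose with overexpression as GAS5 did (0.60 ± 0.13 SE, log2, edgeR adjusted p = 0.000590) and had -0.10 ± 0.15 with knockdown. ZNFX1, 248 bases from ZFAS1 on the opposite strand, had -0.02 ± 0.07 and 0.05 ± 0.08. RCC1, the nuclear exchange factor that starts 37 bases from SNHG3 on the same strand, fell by 0.52 ± 0.05 with overexpression and by 0.32 ± 0.05 with knockdown, whereas SNHG3 had -0.00 ± 0.05 with overexpression and fell with knockdown. SLC3A2, an amino acid transporter chain 188 bases from SNHG1, rose by 0.26 ± 0.05 and 0.56 ± 0.06. Errors here are SE on the log2 scale, and the calls are edgeR's.

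Of 9 other noncoding snoRNA hosts tested, 3 rose and 1 fell with overexpression by edgeR's test, beside 25.2% and 24.1% of all genes. With knockdown 1 rose and 3 fell, beside 19.9% and 19.1%. SNHG17 was higher under both treatments, as SNHG15 was, by 0.53 ± 0.06 (SE, log2) each, EPB41L4A-AS1 rose with overexpression (0.37 ± 0.06), and DANCR fell in both, by 0.26 ± 0.07 and 0.33 ± 0.07. SNHG10 rose with overexpression (0.26 ± 0.08) and fell by 0.32 ± 0.09 with knockdown, and each call was lost without 1 library (control replicate 2 and knockdown replicate 2). Other long noncoding RNAs, 18 tested, numbered 9 higher and 2 lower with overexpression (median 0.21), led by NEAT1 of the paraspeckles (0.93 ± 0.04) and MALAT1 of nuclear speckles (0.60 ± 0.08), and 6 higher and 2 lower with knockdown (median 0.03, or -0.02 without TMM scaling).

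The decay pathway that acts on host gene RNA was represented by 21 NMD factors. By edgeR's test 0 rose and 11 fell with overexpression (median -0.12), and 10 rose and 1 fell with knockdown (median 0.13). Over all genes tested, 25.2% rose and 24.1% fell with overexpression, and 19.9% rose and 19.1% fell with knockdown. No factor rose with overexpression at an unadjusted p under 0.05 or by DESeq2, and without TMM scaling 5 rose and 3 fell with knockdown. Those that fell with overexpression included DHX34 (-0.65 ± 0.05 SE, log2), RBM8A of the exon junction complex (-0.53 ± 0.05) and SMG6, the endonuclease (-0.51 ± 0.06). Of 16 mRNAs known as NMD substrates, 5 rose and 5 fell with overexpression, and 10 rose and 1 fell with knockdown (medians 0.03 and 0.17), or 7 and 4 with knockdown without TMM scaling. Of the 16, 5 are NMD factors too. Among the 16, ATF3 rose in both (0.73 ± 0.05 and 0.63 ± 0.05), as did GADD45A (0.59 ± 0.05 and 0.52 ± 0.05), while GADD45B fell by 0.59 ± 0.07 with overexpression and rose with knockdown (0.82 ± 0.07). Whether the NMD factors bear on the host genes was not tested.

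The snoRNP proteins assemble and act with the snoRNAs. Of 17, 3 rose and 9 fell with overexpression (median -0.15), and 6 rose and 3 fell with knockdown (median 0.07). The shares over all genes were 25.2% and 24.1% with overexpression and 19.9% and 19.1% with knockdown. NHP2 of the H/ACA particle fell in both, by 0.43 ± 0.06 (SE, log2) and 0.23 ± 0.06, the second call being lost without either knockdown library, and NOLC1, a nucleolar assembly factor, fell by 0.16 ± 0.04 and 0.61 ± 0.05. Of 39 protein-coding snoRNA hosts, 4 rose and 13 fell with overexpression, and 17 rose and 3 fell with knockdown (medians -0.02 and 0.13). Without TMM scaling, 11 rose and 3 fell with knockdown, and the overexpression median was 0.02. Of the 39, 19 encode ribosomal proteins. HSPA8, a chaperone and snoRNA host, fell by 0.40 ± 0.04 with overexpression and rose 0.51 ± 0.05 with knockdown. TAF1D rose in both (0.60 ± 0.07 and 0.31 ± 0.08), with knockdown not without its replicate 2.

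TOP mRNAs comprise the ribosomal protein genes and other translation genes. Of 76 cytosolic ribosomal protein genes, 17 rose and 6 fell with overexpression (median 0.04), beside 25.2% and 24.1% of all genes. With knockdown 32 rose and 2 fell (median 0.14), or 20 and 2 without TMM scaling, beside 19.9% and 19.1% of all genes. Of 18 other TOP mRNAs, 2 rose and 6 fell with overexpression (median -0.07), or 4 and 4 without TMM scaling (median -0.03), and 6 rose and 0 fell with knockdown (median 0.11). DESeq2 also had 6 and 0, and at an unadjusted p under 0.05 it was 7 and 0 by edgeR, but 4 and 0 were called without TMM scaling. The 10 TOP regulators included LARP1, which fell by 0.37 ± 0.05 (SE, log2) with overexpression, and MTOR, which fell by 0.21 ± 0.05 with overexpression and rose 0.44 ± 0.05 with knockdown. Of the regulators 3 rose and 5 fell with overexpression, and 2 rose and 1 fell with knockdown.

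**Figure D5:**
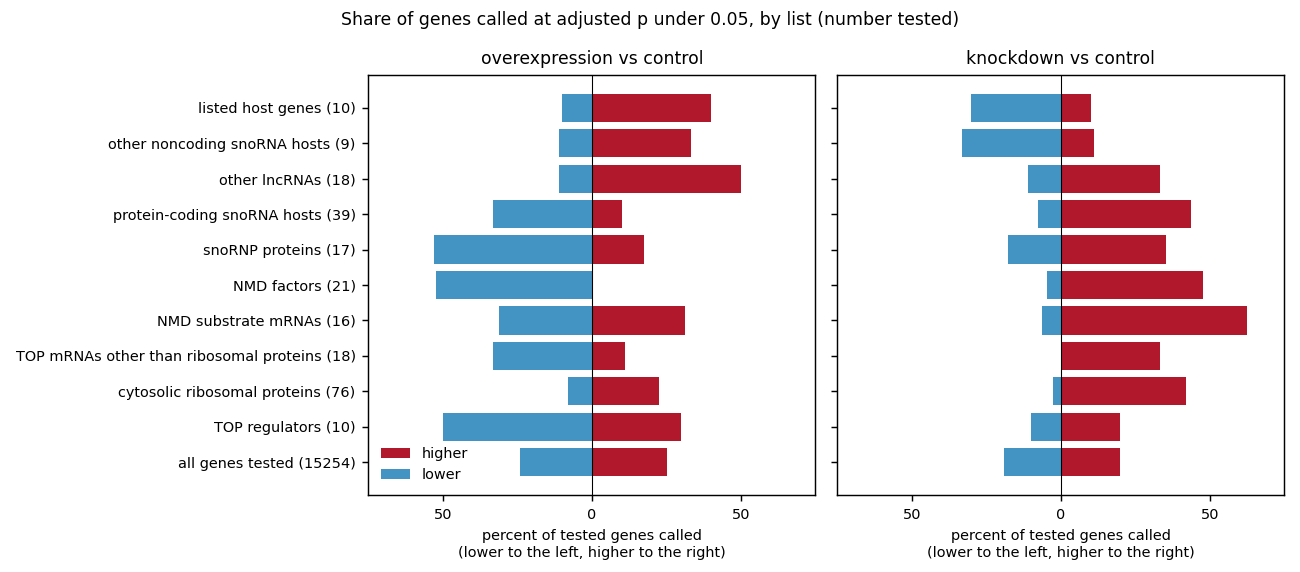
Percent of tested genes called higher (right, red) or lower (left, blue) at an adjusted p under 0.05, by gene list with the number tested, with overexpression and with knockdown. With overexpression 4 of 10 listed host genes were higher and 1 lower, and of 21 NMD factors 0 were higher and 11 lower.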

How the data were processed

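Counts of reads per gene symbol, made and deposited by the authors and not normalized, were used for 8 libraries. Per the labels' protocols, a stranded TruSeq kit was used on total RNA. The submitters' processing notes name HTSeq 0.5.3p9, TopHat2 2.0.8, SAMtools 0.1.18, Trimmomatic 0.22, CASAVA 1.8.2, edgeR and build hg19, and the strand setting is not given in the sources used here. Groups came from the sample titles. Genes passing filterByExpr (minimum count 10) were fitted with edgeR 4.0.16 in R 4.3.3 (TMM, quasi-likelihood F test, two-sided, 1 fit of all 8 libraries), with Benjamini-Hochberg adjustment over 15254 genes. The fit was also run on simulated data with 200 changed genes, far fewer than were called here, and the same spread in every group. That simulation cannot show how well the scaling or the shared spread suits these libraries. Members and lists were chosen with earlier results of these data known. All members are named, with up to 4 genes per list by smallest adjusted p (SNHG10 was added after its values were seen), neighbouring coding genes and the 5 genes most like GAS5; some items this rule names are not reported here. Reading frames and lengths come from GENCODE 29 and starts from RefSeq, a different build from the counts. Alternatives were library totals, RLE factors, DESeq2 1.42.0, limma-voom (limma 3.58.1), other filters, only the compared groups, the replicate number as a block, an adjusted p of 0.01, other lengths and leaving out each library.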

Additional observations from a re-analysis of the deposited data

How the results depend on the processing

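Of 400 refits of single members, 357 kept direction and side of the threshold, 17 lost a call, 8 gained one and 18 changed sign. None of the sign changes involved a call. In log2, overexpression against control without TMM scaling gave 0.017 for SNHG1, 0.036 for SNHG3 and 0.0061 for SNHG7, and knockdown gave -0.036 for ZFAS1, or -0.0065 with the replicate block. SNHG5 in the direct contrast had -2.8e-05 with RLE factors, -0.0013 without a filter and -2.9e-05 with DESeq2. With 1 library left out, values ran from -0.042 to 0.013 for SNHG1, -0.017 to 0.0047 for SNHG3 and -0.097 to 0.0099 for SNHG7 with overexpression, from -0.012 to 0.029 for ZFAS1 with knockdown, and in the direct contrast from -0.19 to 0.030 for SNHG12 and -0.019 to 0.036 for SNHG5. Members called with overexpression numbered 3 at an adjusted p under 0.01, and 3 to 5 with 1 library left out, with 3 without control replicate 2, where SNHG8 and SNHG16 were lost. The order per length kept 3 ranks with the longest and 4 with the median transcript, by another length alone. For the other changes the cause was not tested.

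Libraries with the same number did not deviate together (correlations -0.085 to 0.09), so the replicate block is given here once. It called 5, 4 and 5 members with overexpression, with knockdown and in the direct contrast, where SNHG1 was lost. Depth limits the snoRNAs, whose errors exceed those of the hosts.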
